A study of Mus musculus with 12 samples.

Results

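The genes described here are 47 genes of skeletal muscle that encode the contractile filaments, the proteins that hold them in register, the calcium release and storage machinery and the fuel supply of the muscle fibre. They were taken as a list of names, drawn up with earlier results of these data known, and all 47 have a row of their own among the 22180 genes of the array table. Total RNA of dorsal skin was read on 12 arrays, each holding skin pooled from 4 or 5 male and female C57Bl/6 mice, 58 mice over all pools. WT mice carry neither change, IL-6KO mice lack IL-6, IL-17C+ mice overexpress IL-17C from a transgene, and IL-17C+KO mice carry that transgene and lack IL-6. Neither the promoter of the transgene nor whether involved and uninvolved pools share mice was given in the sources used here. Of both transgenic genotypes, involved skin (with lesions) and uninvolved skin were taken, which gives 6 groups. Matching body regions were taken from WT and IL-6KO mice, although the labels' skin type field calls IL-6KO skin involved and WT skin uninvolved. Every group has 1 pool of mice at 10 weeks of age and 1 pool at 14 weeks, in that order wherever a pair of values is given below. The WT and IL-6KO pools at 10 weeks held 4 mice and all others 5. RNA came from skin next to the piece used for histology.

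Skeletal muscle is not a cell type of the skin proper. In mice a thin sheet of striated muscle, the panniculus carnosus, lies under the dermis and the fat of the back, and it comes away with the skin when dorsal skin is cut out. A muscle fibre shortens when myosin heads of the thick filament pull on actin of the thin filament. Calcium that leaves the sarcoplasmic reticulum through the ryanodine receptor starts this by binding troponin, and a pump returns it to the store. Fast and slow fibres build the same machine from different genes, so that most parts have a fast and a slow isoform. Fast fibres are graded further by their myosin heavy chain: Myh2 marks type IIA fibres, which are rich in mitochondria, Myh1 type IIX and Myh4 type IIB, the fastest and most glycolytic.

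The genes of these fast heavy chains stand side by side on mouse chromosome 11, in the order Myh2, Myh1, Myh4, with no other protein-coding gene between neighbours. They are shown because their values part from each other, most of all on the IL-6KO array of 14 weeks. They also part in involved IL-17C+ skin, which has IL-6. Relative to the mean of both WT pools, Myh1 stood there at -2.93 and -3.26 in log2, Myh2 at -1.39 and -1.79 and Myh4 at -1.89 and -2.32. The 250 bases before each start site, from RefSeq on GRCm38.p6, plus strand, hold a run of 20 bases that is identical in the 3 genes, printed in capitals.
Myh2, chr11:67170777-67171026: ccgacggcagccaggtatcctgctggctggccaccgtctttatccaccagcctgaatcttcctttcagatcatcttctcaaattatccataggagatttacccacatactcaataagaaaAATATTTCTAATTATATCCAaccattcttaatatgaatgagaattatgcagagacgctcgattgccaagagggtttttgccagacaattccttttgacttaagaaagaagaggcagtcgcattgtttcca
Myh1, chr11:67199852-67200101: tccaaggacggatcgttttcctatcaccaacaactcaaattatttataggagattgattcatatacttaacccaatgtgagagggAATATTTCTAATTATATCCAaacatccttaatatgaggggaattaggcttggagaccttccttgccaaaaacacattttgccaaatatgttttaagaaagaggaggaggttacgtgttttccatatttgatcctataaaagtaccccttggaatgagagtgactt
Myh4, chr11:67237562-67237811: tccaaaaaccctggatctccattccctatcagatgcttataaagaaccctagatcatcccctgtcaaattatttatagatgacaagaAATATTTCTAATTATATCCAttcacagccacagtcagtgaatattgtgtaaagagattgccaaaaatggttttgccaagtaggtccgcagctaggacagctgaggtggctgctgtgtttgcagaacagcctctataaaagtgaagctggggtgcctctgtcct

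The shared run begins 130 bases before the start site of Myh2, 165 before that of Myh1 and 163 before that of Myh4. It was taken as the longest stretch that these 3 promoters share, so its presence in them was fixed beforehand. Searched on both strands, it is in 3 of 32851 promoters of the table, those of Myh1, Myh2 and Myh4. The E-box, CANNTG, is the motif bound by the myogenic factors of the MyoD family. It is printed in capitals in the promoters of Ckm, the muscle creatine kinase (plus strand), and of Casq1, the fast calsequestrin (minus strand), because Casq1 had the lowest difference of all members in involved IL-17C+ skin.
Ckm, chr7:19410844-19411093: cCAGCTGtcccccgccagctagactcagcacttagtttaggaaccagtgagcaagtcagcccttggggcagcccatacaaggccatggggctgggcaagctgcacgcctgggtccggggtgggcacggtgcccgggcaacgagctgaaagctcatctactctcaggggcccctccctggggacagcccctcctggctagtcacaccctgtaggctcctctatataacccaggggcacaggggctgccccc
Casq1, chr1:172219896-172220145: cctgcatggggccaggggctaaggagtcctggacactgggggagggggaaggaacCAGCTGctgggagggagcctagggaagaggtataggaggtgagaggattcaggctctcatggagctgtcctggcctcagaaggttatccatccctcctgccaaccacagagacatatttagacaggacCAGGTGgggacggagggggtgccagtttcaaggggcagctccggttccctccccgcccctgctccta

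Of the 47 members, 37 have an entry in the promoter table, with 44 promoters in all. CANNTG reads the same on both strands in its fixed letters, and it was in 84.1% of the member promoters and in 66.2% of all 32851 promoters. The letters TATAAA, searched on both strands, were in 15.9% and 12.4%. These are matches of letters in a window, not binding sites. CANNTG was in 8 of 11 promoters of fast isoforms and in 10 of 10 of slow isoforms. Here and in what follows, the 7 slow isoforms are Myh7, Myl2, Myl3, Tnnt1, Tnni1, Tnnc1 and Casq2. Mybpc1, which is named for slow fibres, was not put in that list, although its fast counterpart Mybpc2 is among the 13 fast isoforms.

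The fast isoforms gave bright signals that differed widely between the pools of skin, and the 7 slow isoforms gave dim ones that varied less. Mybpc1, outside both lists, ran from 6.94 to 10.11, above the array median on all 12 arrays. Probes differ in how brightly they report, so levels of different genes are not amounts of RNA to be set against each other. Intensities were deposited on a linear scale after normalization between arrays, and log2 was taken here, so that a level or difference of 1 stands for a 2-fold step. The mean log2 level of the 13 fast isoforms was 9.60 and 10.33 in WT, 10.20 and 9.91 in IL-17C+ uninvolved and 7.76 and 7.52 in IL-17C+ involved skin. In IL-6KO skin the mean was 8.85 at 10 weeks, and at 14 weeks it stood at -1.96 relative to the mean of both WT pools. With transgene and no IL-6 it was 8.14 and 8.74 in uninvolved and 9.92 and 8.60 in involved skin. The lowest pair was involved IL-17C+ skin, below every other array, and WT and uninvolved IL-17C+ skin overlapped. As a share of the WT geometric mean, the fast isoforms stood at 21.8% and 18.4% in IL-17C+ involved skin, 46.3% and 25.6% in mice without IL-6 and no transgene, 28.3% and 42.8% in IL-17C+KO uninvolved and 96.8% and 38.8% in IL-17C+KO involved skin. In these bulk pools, less muscle in the piece of skin and less RNA of these genes per fibre cannot be told apart.

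**Figure D1:**
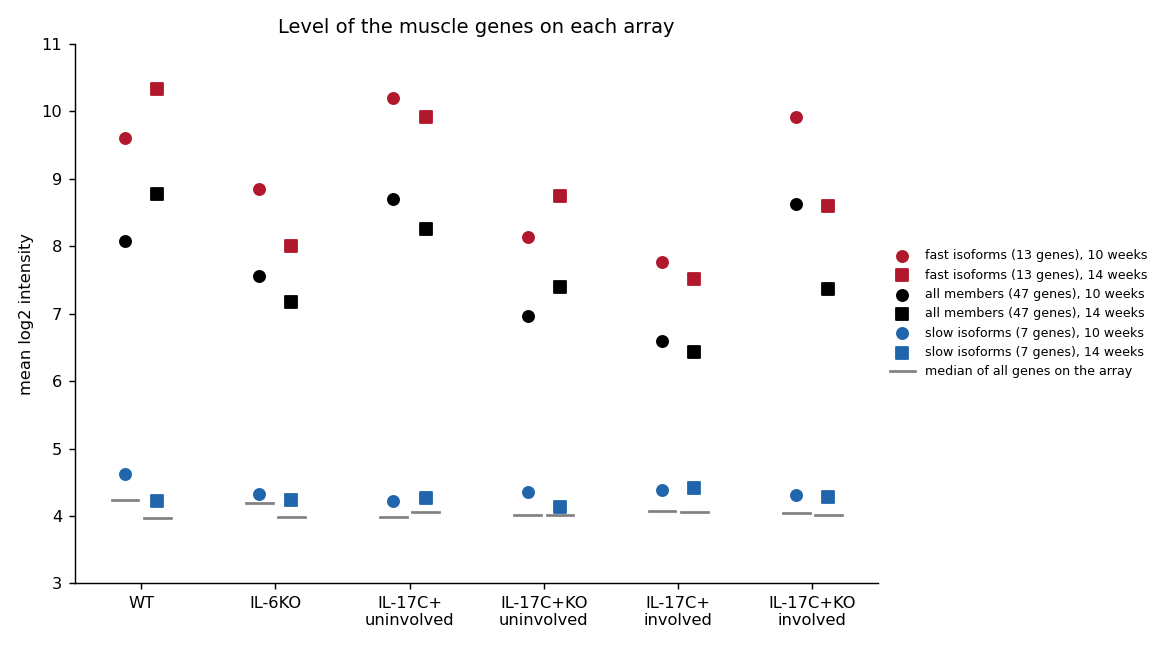
Mean log2 intensity (y axis) of the 13 fast isoforms, all 47 members and the 7 slow isoforms on each of the 12 arrays, by group (x axis), with circles for 10 weeks and squares for 14 weeks and a grey bar at the median of all genes on that array. The fast mean is lowest in IL-17C+ involved skin at 7.76 and 7.52, and the slow mean lies between 4.14 and 4.63 on every array, close to the grey bars.

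The 7 slow isoforms were dim on every array. Their values ran from 3.11 to 5.57, while array medians over all genes lay between 3.97 and 4.23, and 49 of their 84 values were above the median of their own array. Tnnc1, the troponin C of slow and cardiac muscle, was above it on 12 arrays, by 1.04 to 1.55, and Tnnt1, the slow troponin T, by 0.48 to 1.12. Myh7, the slow heavy chain, was above the median on 2 arrays, Myl2, the slow regulatory light chain, on 2 and Myl3, the slow essential light chain, on 1. The fast isoforms were above the median on every array, with a lowest value of 4.79 for Myh4 and a highest of 11.98 for the same gene. Because the slow isoforms sit so near the middle of all genes, a fall of the size seen in the fast isoforms could hardly be read from them.

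Involved IL-17C+ skin had lower levels of most of the muscle genes than WT skin. In limma's test over all genes, 28 of the 47 members were lower at an adjusted p under 0.05 and 0 were higher, where 0.699% of all 22180 genes were called lower. The median difference of the members was -2.24, against 0.01 over all genes. Both involved pools lay below both WT pools for 40 of the 47, which 16.4% of all genes did. Members passed in 5 of 6 roles: 6 of 12 genes of the thick filament and motor, 5 of 9 of the thin filament, 8 of 12 of the Z-disc, titin and intermediate filament, 6 of 7 of calcium handling and 3 of 6 of energy and oxygen supply. The secreted growth inhibitor Mstn, the 1 member of its role, did not pass. The call rests on both involved pools and on 1 WT pool: 0 members passed without the IL-17C+ involved pool of 10 weeks or without the WT pool of 14 weeks and 1 without the IL-17C+ involved pool of 14 weeks, while the median stayed between -2.94 and -1.54 with any 1 array left out.

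**Figure D2:**
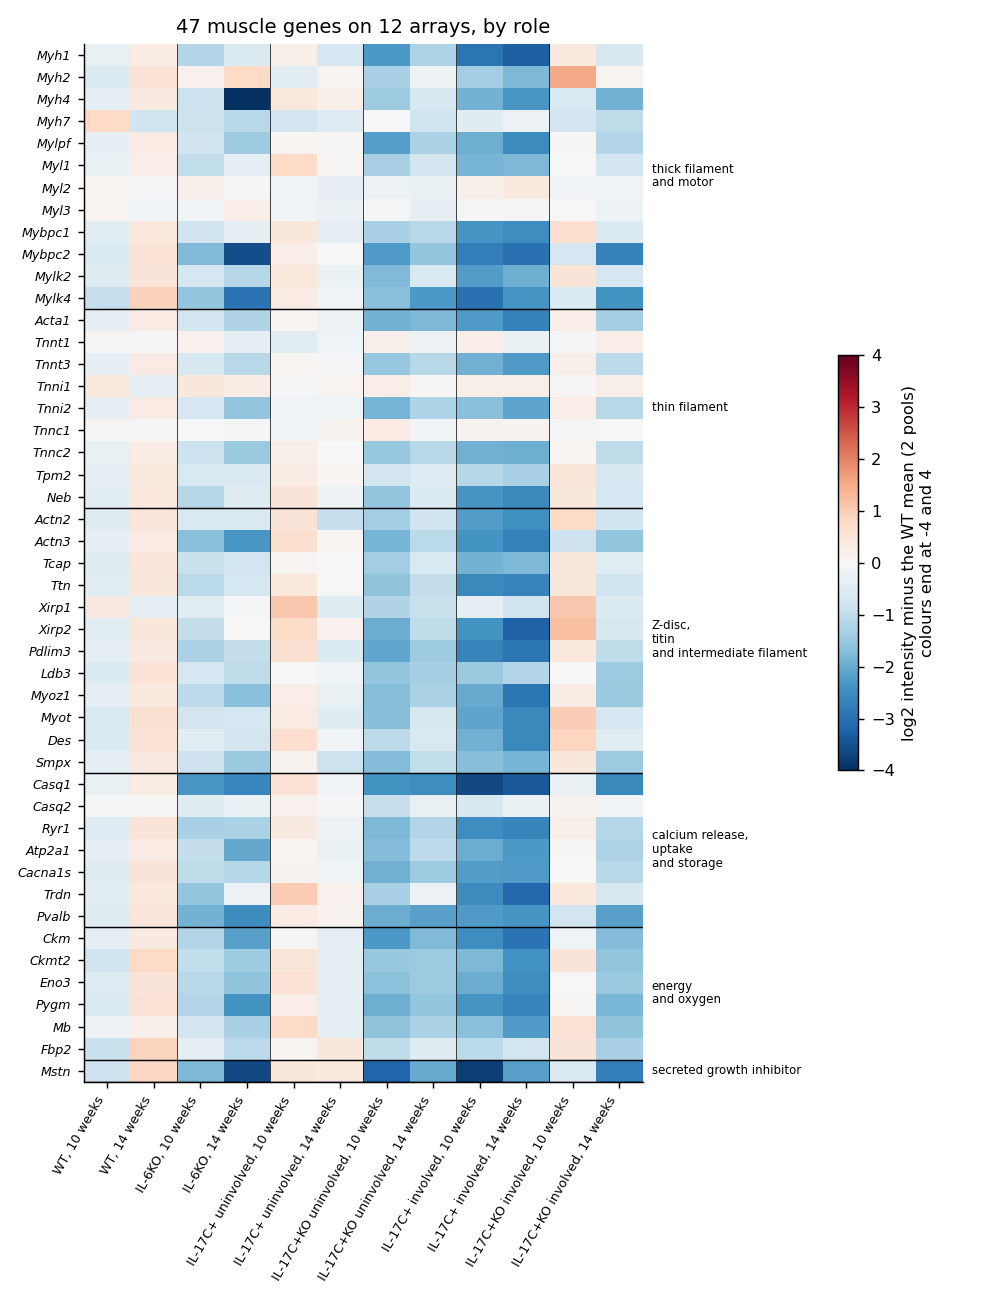
Log2 intensity of each of the 47 members (rows, grouped by role) on each of the 12 arrays (columns, 2 per group) minus the mean of the 2 WT pools, with blue for lower and red for higher and colours ending at -4 and 4. Involved IL-17C+ skin is blue in all roles except the slow isoforms, Casq1 stands at -3.62 and -3.35 there, and Myh4 of IL-6KO skin at 14 weeks lies past the end of the scale.

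In the thick filament, the fast regulatory light chain Mylpf read 9.53 and 10.16 in WT and 7.89 and 7.30 in IL-17C+ involved skin, 4.76-fold lower (log2 difference -2.25 ± 0.43 (SE, n = 2 pools per group), adjusted p 0.0204 by limma). Its slow counterpart Myl2 read 3.97 and 3.82 against 4.11 and 4.28. The groups did not overlap for either gene, but Myl2 differed by only 0.30 ± 0.20 and did not pass. The fast essential light chain Myl1 went from 7.90 and 8.41 to 6.30 and 6.36 and passed at -1.82 ± 0.36. Myl3, its slow counterpart, read 3.95 and 3.75 against 3.81 and 3.81, a difference of -0.04 ± 0.22.

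The heavy chains differed from each other. Myh1 was 8.53-fold lower, at -3.09 ± 0.45 (adjusted p 0.00422), the lowest difference of the thick filament. Myh4 read 11.18 and 11.93 in WT and 9.66 and 9.23 in IL-17C+ involved skin, so that the groups did not overlap, yet its difference of -2.11 ± 1.14 did not pass (adjusted p 0.516). Its error was the largest of the members, and without 1 array that stood apart, the IL-6KO pool of 14 weeks described below, the same difference of -2.11 passed (adjusted p 0.0358). Myh2 at -1.59 ± 0.49 did not pass, and Myh7, the heavy chain of slow fibres and of the heart, read 5.01 and 3.41 against 3.74 and 3.98, which overlap.

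Myosin-binding protein C tethers myosin heads to the thick filament backbone, and both skeletal forms fell. Mybpc2, the fast form, read 8.43 and 9.53 in WT and 6.21 and 6.01 in involved skin, at -2.87 ± 0.60 (adjusted p 0.0319). Mybpc1, named the slow form, read 9.01 and 9.85 against 7.08 and 6.94, at -2.42 ± 0.42 (adjusted p 0.0121). Mybpc1 thus differed between the groups as the fast genes did, although it is named for slow fibres. Mylk2, the skeletal myosin light chain kinase, passed at -2.08 ± 0.48, and Mylk4, another kinase of that family, at -2.69 ± 0.64 did not.

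In the thin filament, Acta1, the skeletal actin, read 11.65 and 12.29 in WT and 9.70 and 9.26 in IL-17C+ involved skin, 5.61-fold lower (-2.49 ± 0.42, adjusted p 0.0112). The fast troponins fell together. Tnnt3, which anchors the troponin complex on tropomyosin, went from 11.20 and 11.89 to 9.62 and 9.28 (-2.10 ± 0.40). Tnni2, the inhibitory subunit, went from 10.30 and 10.95 to 8.95 and 8.52 (-1.89 ± 0.43). Tnnc2, the calcium-binding subunit, went from 10.02 and 10.61 to 8.38 and 8.37 (-1.94 ± 0.37).

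Their slow counterparts did not pass. Tnnt1 read 4.91 and 4.83 in WT and 5.12 and 4.61 in involved skin, Tnni1 read 4.70 and 3.90 against 4.53 and 4.52, and Tnnc1 read 5.29 and 5.17 against 5.36 and 5.38. Their differences lay between -0.00 and 0.22, with standard errors of 0.23 to 0.27. Neb, nebulin, which runs along the thin filament, fell at -2.47 ± 0.46. Tpm2, a tropomyosin that smooth muscle and other cells also make, was at -1.22 ± 0.36 and did not pass (adjusted p 0.138).

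The Z-disc is the plate into which thin filaments insert, and titin spans from it to the middle of the sarcomere. Ttn read 10.54 and 11.45 in WT and 8.43 and 8.32 in IL-17C+ involved skin, 6.17-fold lower (-2.63 ± 0.43, adjusted p 0.00971). Des, desmin, the intermediate filament that ties myofibrils together, read 8.66 and 9.80 against 7.32 and 6.66 (-2.25 ± 0.46). Both groups were apart on both pools in each gene. The actin crosslinker of fast fibres, Actn3, fell at -2.55 ± 0.38, and Actn2, the form of all fibres, at -2.35 ± 0.52. Tcap, the titin cap, Xirp2, Pdlim3 and Myoz1 also passed, between -2.82 and -1.85. Myot, Smpx, Ldb3 and Xirp1 did not pass, at -2.34, -1.77, -1.32 and -0.60.

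Among the calcium genes, Casq1, the calsequestrin that stores calcium in the reticulum of fast fibres, had the largest fall of all members. It read 9.41 and 10.00 in WT and 6.08 and 6.36 in IL-17C+ involved skin, 11.2-fold lower (-3.48 ± 0.50, adjusted p 0.00391). Casq2, the cardiac and slow form, read 4.58 and 4.66 against 3.99 and 4.35, and its -0.45 ± 0.25 did not pass. Ryr1, the release channel, went from 8.29 and 9.32 to 6.32 and 6.16 (-2.56 ± 0.44). Cacna1s, the voltage sensor that opens it, fell at -2.26 ± 0.38, and Trdn, triadin, which links calsequestrin to the channel, at -2.84 ± 0.53. Atp2a1, the calcium pump of fast fibres, went from 10.73 and 11.38 to 9.06 and 8.75 (-2.15 ± 0.44). Pvalb, parvalbumin, the cytosolic calcium buffer of fast fibres, went from 8.15 and 9.13 to 6.36 and 6.27 (-2.32 ± 0.42, adjusted p 0.0141).

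For energy, Ckm read 10.61 and 11.31 in WT and 8.49 and 8.02 in involved skin, 6.54-fold lower (-2.71 ± 0.46). Pygm, the muscle glycogen phosphorylase, fell at -2.50 ± 0.54 and Eno3, the muscle enolase, at -2.24 ± 0.46. Mb, myoglobin, which stores oxygen, read 8.25 and 8.66 against 6.78 and 6.20, apart on both pools, but at -1.97 ± 0.49 it did not pass (adjusted p 0.0647). Ckmt2, the mitochondrial creatine kinase, at -2.12 ± 0.58 and Fbp2, the muscle fructose bisphosphatase, at -0.90 ± 0.57 did not pass either. Mstn, myostatin, the secreted inhibitor of muscle growth, read 6.73 and 8.40 in WT and 3.79 and 5.41 in involved skin. Its pools did not overlap, and its difference of -2.96 ± 0.79 did not pass (adjusted p 0.0882), with a step of 1.67 between the WT pools.

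Set by fibre type, all 13 fast isoforms were lower in involved IL-17C+ skin, with a median of -2.15, and 11 of them passed. Of the 7 slow isoforms 0 passed (0 at an unadjusted p under 0.05), with differences between -0.45 and 0.30. With Mybpc1 counted as slow, 1 of 8 would have passed, and the lowest difference would be its -2.42. The fast isoforms that did not pass with all arrays were Myh2 and Myh4. Genes of the muscle fibre outside the list moved with it. Of 21 other genes of the sarcomere and costamere 20 were lower, and 10 of these passed. Among them were Myom2, an M-band protein, at -2.56, Nrap at -2.40 and Myom1 at -2.39. Of 15 other genes of excitation-contraction coupling 14 were lower, and 3 of these passed: Srl, sarcalumenin, at -2.49, and the junctophilins Jph2 at -2.01 and Jph1 at -1.61. Of 14 other genes of muscle metabolism 11 were lower, and 3 of these passed, namely Pfkm at -2.30, Ampd1 at -2.28 and Pgam2 at -1.92. Of 9 satellite cell and myogenic regulator genes 5 were lower and 4 higher, with a median of -0.09. Mef2c passed at -1.58, and Myf6, the lowest at -1.87, did not. The median level of this list was 4.51 and 4.49 in WT and 4.46 and 4.28 in involved skin. That is near the array medians, so that a fall of much of the list could hardly be read. Of 9 developmental and denervation genes 6 were lower and 3 higher, with a median of -0.05 and a lowest difference of -1.54 for Myh8. Of the 9, 1 passed as lower.

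Markers of other tissues in the same pieces of skin moved less by their medians, from -0.39 for smooth muscle to 0.17 for fibroblast and collagen genes. Single genes moved further in both directions without passing: Synm (smooth muscle) at -1.50, Nppb (cardiac) at 1.83 and Krt1 (keratinocyte) at 1.99. Of 10 smooth muscle genes 0 passed in this comparison, with a median of -0.39, and their summed level was 10.10 and 10.74 in WT and 9.91 and 9.93 in involved skin on the log2 scale. Of 8 cardiac genes 0 passed, and their mean of 4.15 to 4.56 over all arrays stayed near the array medians. Among 9 keratinocyte genes Krt14 was higher at 1.52 and Col17a1 lower at -1.43, and their summed level was 13.10 and 13.47 in WT and 13.76 and 13.75 in involved skin. Of 9 fibroblast and collagen genes 0 passed (5 at an unadjusted p under 0.05 by limma), with 5 higher and 4 lower, from -1.10 for Col1a2 to 0.92 for Pdgfra. Of 9 adipocyte genes 6 were lower, and 1 of these passed, Car3 at -1.82. The part of these lists in the muscle values was not tested.

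Between uninvolved IL-17C+ and WT skin no member passed. Limma called 0 of the 47 members (0 at an unadjusted p under 0.05), where 0.0541% of all genes were called in either direction. Differences of the members lay between -0.63, for Myh7, and 0.58, for Trdn, with a median of 0.05. Acta1 read 11.65 and 12.29 in WT and 12.06 and 11.74 in uninvolved skin, so that the uninvolved pools fell between those of WT. The standard errors of 0.20 to 1.14 leave room for smaller differences.

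Within IL-17C+ skin, involved pools were lower than uninvolved pools by about as much as than WT. Of the 47 members 28 were called lower and 0 higher, where 0.834% of all genes were called lower, and the median was -2.25. Both involved pools lay below both uninvolved pools for 40 members, which 23.4% of all genes did. Both comparisons use the same involved arrays. Casq1 read 10.28 and 9.55 in uninvolved and 6.08 and 6.36 in involved skin, 13.0-fold lower (-3.70 ± 0.50, adjusted p 0.00312). Ckm read 11.02 and 10.60 against 8.49 and 8.02 (-2.56 ± 0.46). A dimmer row of Ckm that was not used read 6.23 and 6.59 in uninvolved and 6.13 and 5.49 in involved skin. In WT skin that row read 7.39 and 8.46. Mb, at 9.21 and 8.07 against 6.78 and 6.20, passed here (-2.15 ± 0.49, adjusted p 0.0481). Myh4 passed here too without the IL-6KO pool of 14 weeks (-2.42, adjusted p 0.0197) and did not with it (adjusted p 0.422). Without the IL-17C+ involved pool of 10 weeks 2 members passed, without that of 14 weeks 1, and without the uninvolved pool of 10 weeks 2 and of 14 weeks 15.

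Loss of IL-6 alone went with lower values of part of the fast genes. In IL-6KO against WT skin 2 of 47 members were called lower, as were 0.0947% of all genes, and the median of the members was -0.91. Both IL-6KO pools lay below both WT pools for 35 of the 47, which 14.7% of all genes did. Pvalb read 8.15 and 9.13 in WT skin, against 6.75 and 6.12 without IL-6 (-2.20 ± 0.42, adjusted p 0.0406), and Actn3 was 3.99-fold lower (-2.00 ± 0.38, adjusted p 0.0448). Both calls are near the threshold: 0 members passed without the WT pool of 14 weeks, without the IL-6KO pool of 14 weeks or without either involved IL-17C+ pool, and 0 passed without age in the model. It was 1 without the WT or IL-6KO pool of 10 weeks or either IL-17C+KO uninvolved pool, and 4 without either IL-17C+KO involved pool. All 9 fibroblast and collagen genes were lower in the same comparison and 4 passed, with Col1a2 at -2.29, Col1a1 at -2.21 and Col3a1 at -2.16. Their summed level on the log2 scale was 14.66 and 14.25 in WT pools against 12.88 and 12.73. Their part in the muscle values was not tested.

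The fast heavy chains stood at different distances from WT in IL-6KO skin, a difference between genes that was not tested. Myh4 read 10.68 at 10 weeks and 4.79 at 14 weeks, the lowest value of any fast isoform on any array. The same array of 14 weeks held Myh1 at 10.08 and Myh2 at 9.39, against 9.47 and 8.77 at 10 weeks, values that were picked after they were seen. Mybpc2 read 7.23 and 5.44, Casq1 7.37 and 7.10, and Mstn 5.76 and 3.97 in the IL-6KO pools, all below the WT pools, and Mybpc2 and Mstn were also low at 14 weeks. One array gives no test of this step. Against WT, Myh2 was at 0.49 ± 0.49 and Myh4 at -3.82 ± 1.14 (adjusted p 0.252), neither passing, and these were the highest and lowest differences of the 47.

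In uninvolved transgenic skin, lack of IL-6 also went with lower muscle values. Comparing IL-17C+KO with IL-17C+ uninvolved skin, 2 of 47 members were called lower, as were 0.171% of all genes. The median of the members was -1.36, with 35 at an unadjusted p under 0.05. Both IL-17C+KO pools lay below both IL-17C+ pools for 39 members, which 21.0% of all genes did. Casq1 read 10.28 and 9.55 in IL-17C+ and 7.32 and 7.23 in IL-17C+KO skin, 6.22-fold lower (-2.64 ± 0.50, adjusted p 0.0311). Pvalb read 8.98 and 8.78 against 6.64 and 6.47 (-2.32 ± 0.42, adjusted p 0.0219). Acta1 at 12.06 and 11.74 against 10.08 and 10.17 was apart on both pools but did not pass (-1.78 ± 0.42, adjusted p 0.101). Leaving out any 1 of these 4 arrays left 0 members past the threshold, and fitting these 4 arrays alone gave 20. Arrays outside the comparison, which share its estimate of spread, moved the count to 1 (without either IL-6KO pool), 4 (without either WT pool), 7 and 8 (without the IL-17C+KO involved pool of 14 and 10 weeks).

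Involved skin went the other way. Against IL-17C+ involved skin, IL-17C+KO involved skin was called higher in 10 of 47 members and lower in 0. Of all genes 0.230% were called higher, and the median of the members was 1.55. Both IL-17C+KO pools lay above both IL-17C+ pools for 36 members, which 23.5% of all genes did. The members that passed were Xirp2 at 3.09, Myh1 at 2.97, Trdn at 2.73, Pdlim3 at 2.50, Mybpc1 at 2.49, Ttn and Des at 2.45, Myh2 at 2.41, Neb at 2.34 and Tcap at 1.85. Ttn read 8.43 and 8.32 in IL-17C+ and 11.45 and 10.20 in IL-17C+KO involved skin (2.45 ± 0.43, adjusted p 0.0228), and Des read 7.32 and 6.66 against 10.09 and 8.78. Pvalb at 0.87 ± 0.42, Myh4 at 0.87 ± 1.14 and Mybpc2 at 1.17 ± 0.60 did not pass. The count was 24 without the IL-17C+KO involved pool of 14 weeks, 6 without either IL-6KO pool and 0 without the IL-17C+KO involved pool of 10 weeks or either IL-17C+ involved pool. All 9 fibroblast and collagen genes were lower in this comparison, and 2 passed, Col3a1 at -1.69 and Col5a1 at -1.41. Muscle and collagen genes thus moved in opposite directions, and their part in each other's values was not tested.

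**Figure D3:**
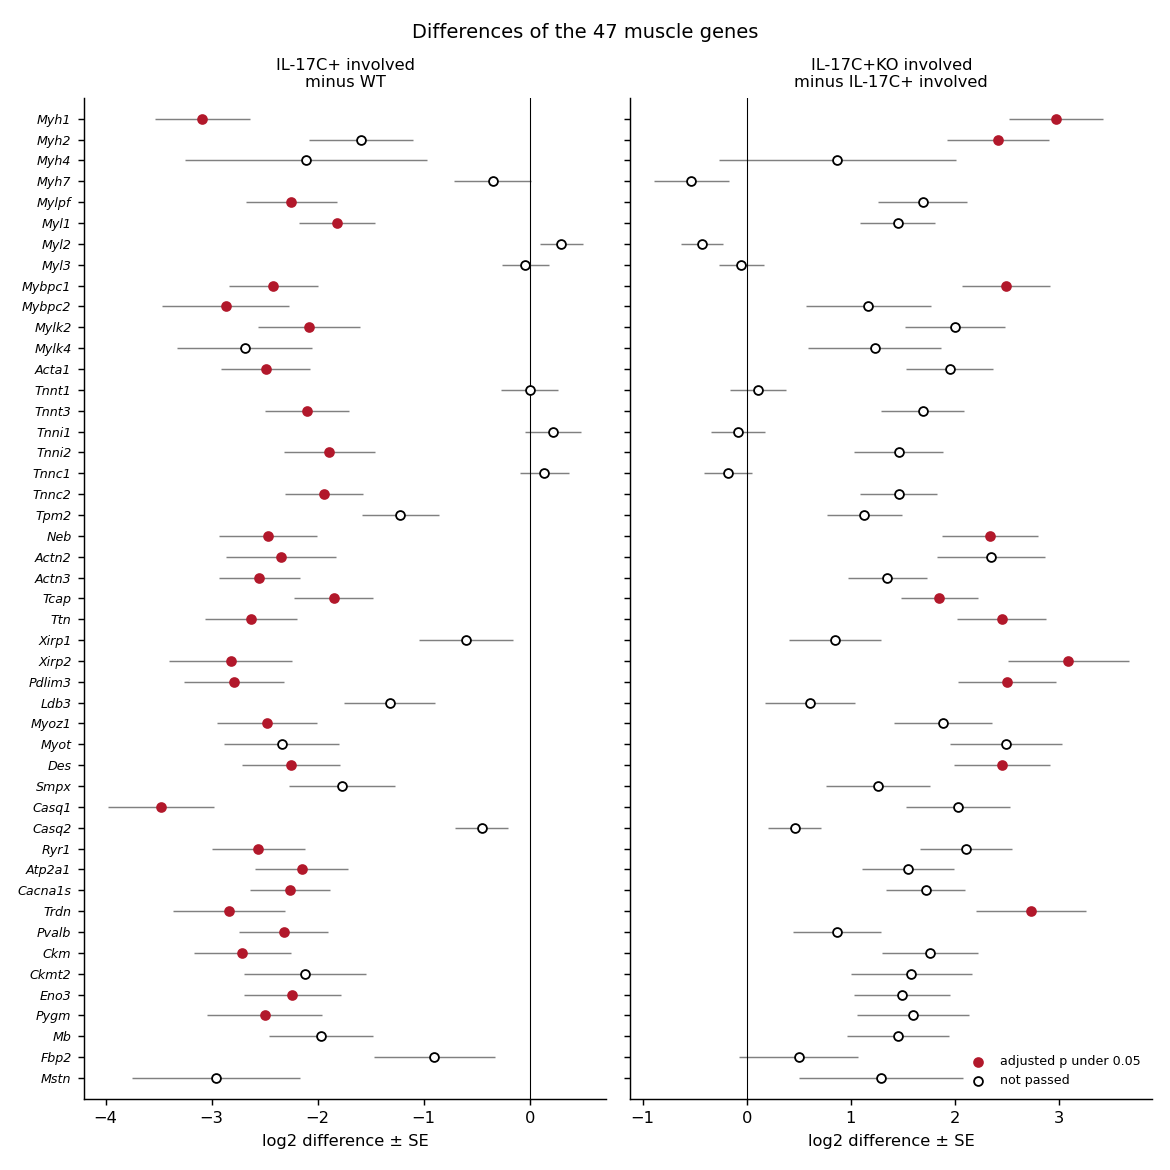
Log2 difference with its moderated standard error for each of the 47 members in IL-17C+ involved against WT skin (left) and IL-17C+KO involved against IL-17C+ involved skin (right), with filled points for an adjusted p under 0.05. On the left 28 points are filled and lie between -3.48 and -1.82, on the right 10 are filled between 1.85 and 3.09, and the 7 slow isoforms lie between -0.53 and 0.46 in both panels.

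Against IL-6KO skin, neither IL-17C+KO group passed in any member. Limma called 0 of 47 in involved skin (2 at an unadjusted p under 0.05, median 0.69), where 0.171% of all genes were called in either direction, and 0 of 47 in uninvolved skin (2 at an unadjusted p under 0.05, median -0.24), where 0.397% were. Myh4 was highest in both, at 2.57 and 2.78, again with the single low IL-6KO array. The median of 0.69 in involved skin was -0.05 without the IL-17C+KO involved pool of 10 weeks. In each of these comparisons 1 member passed without the IL-6KO pool of 10 weeks.

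The difference between skin sites was not the same in the transgenic genotypes. In IL-17C+ skin the involved site was lower than the uninvolved site in 41 of 47 members, while in IL-17C+KO skin its mean was higher in 43 of 47, with a median of 0.91. That higher mean came from the pools of 10 weeks. At 10 weeks the involved IL-17C+KO pool was above the uninvolved one in 43 members, with a median of 1.93, and at 14 weeks it was above in 23 and below in 23, with a median of 0.00. The mean of all members at 14 weeks was 7.36 in involved and 7.40 in uninvolved IL-17C+KO skin, and that of the fast isoforms 8.60 and 8.74. In IL-17C+ skin the involved pool was lower at both ages, in 41 members at 10 weeks and in 42 at 14 weeks, with medians of -2.41 and -2.10. Each of these steps within an age is 1 pool against 1 pool and carries no test. Limma called 0 members in the IL-17C+KO comparison (20 at an unadjusted p under 0.05), where 0.505% of all genes were called in either direction, and both involved pools lay above both uninvolved pools for 19, which 21.6% of all genes did. Without the IL-17C+KO involved pool of 14 weeks 3 members passed and the median was 1.67. Without the involved pool of 10 weeks the median was 0.20, and without the uninvolved pool of 10 weeks 0.51, with 0 members at an unadjusted p under 0.05 in either case. These site comparisons share no arrays. The interaction, the IL-17C+KO site difference minus that of IL-17C+, passed in 30 of 47 members, all positive, where 1.15% of all genes were called higher, and its median was 3.18. By role this held for 6 of 12 genes of the thick filament, 5 of 9 of the thin filament, 9 of 12 of the Z-disc group, 6 of 7 of calcium handling, and 4 of 6 of energy and oxygen supply, and Mstn did not pass. Of the fast isoforms 11 of 13 passed, and of the slow isoforms 0 of 7 (1 at an unadjusted p under 0.05 by limma), with Casq2 the highest of them at 1.13.

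Xirp2, a Xin repeat protein at the junctions of the myofibril, had the largest interaction at 5.04 ± 0.81 (adjusted p 0.00544). Casq1 followed at 4.67 ± 0.71, with 10.28 and 9.55 in uninvolved and 6.08 and 6.36 in involved IL-17C+ skin, and 7.32 and 7.23 in uninvolved and 9.39 and 7.11 in involved IL-17C+KO skin. As for the members together, the higher value of Casq1 in involved IL-17C+KO skin rested on the pool of 10 weeks. Ryr1 showed 9.15 and 8.56 against 6.32 and 6.16 in IL-17C+, and 7.01 and 7.62 against 9.04 and 7.66 in IL-17C+KO skin (3.65 ± 0.62). Atp2a1 showed 11.15 and 10.79 against 9.06 and 8.75, and 9.31 and 10.01 against 11.09 and 9.82 (2.86 ± 0.63). With any 1 array left out, 8 to 38 members passed, with medians from 2.40 to 4.01. It was 8 without the IL-17C+KO uninvolved pool of 10 weeks, 9 without the IL-17C+KO involved pool of 10 weeks, 9 without the IL-17C+ involved pool of 14 weeks, 15 without that of 10 weeks and 17 without the IL-17C+ uninvolved pool of 10 weeks.

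**Figure D4:**
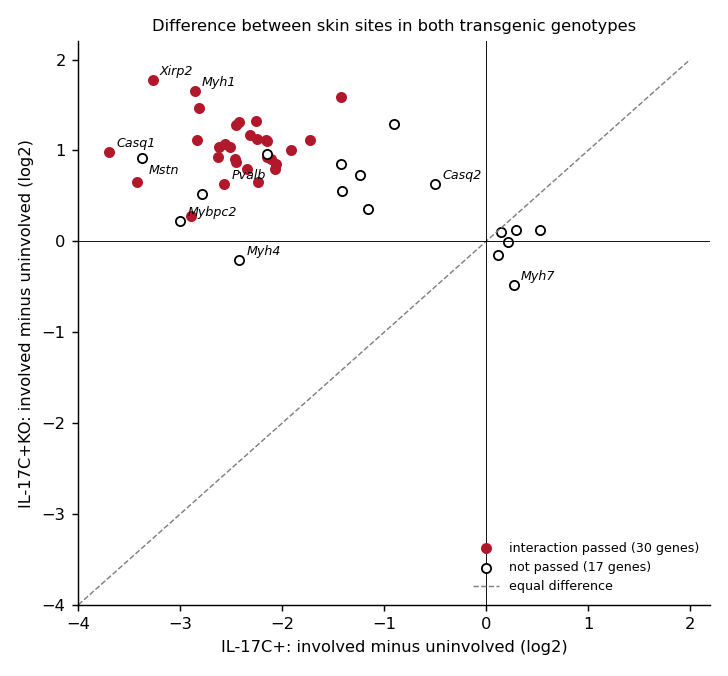
Log2 difference between involved and uninvolved skin in IL-17C+ mice (x axis) and in IL-17C+KO mice (y axis) for the 47 members, with filled points where the interaction passed and a dashed line where both differences would be equal. The 30 filled points lie to the left of 0 and above 0, and the slow isoforms lie between -0.50 and 0.63 on both axes.

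The pools of a group differed by age in a way that was not shared between groups. In IL-17C+KO involved skin 44 of 47 members were lower at 14 than at 10 weeks, with a median of -1.30, and all 13 fast isoforms were. Acta1 went from 12.24 to 10.63, Ckm from 10.80 to 9.21 and Mb from 9.04 to 6.84. In WT skin 40 of 47 were higher at 14 weeks, with a median of 0.79, and in IL-17C+KO uninvolved skin 38 were, with a median of 0.52. In IL-17C+ uninvolved skin 41 were lower at 14 weeks and in IL-17C+ involved skin 35, with medians of -0.42 and -0.21. In IL-6KO skin 30 were lower and 17 higher at 14 weeks, with a median of -0.32, from -5.89 for Myh4 to 1.31 for Trdn. Each of these steps is 1 pool against 1 pool, so age and the piece of skin cannot be told apart. Over all groups limma called 0 members for age (2 at an unadjusted p under 0.05) and 0% of all genes.

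The members did not all take the same step where IL-6 was lost. Each pool without IL-6 was set against the pool with IL-6 of the same age and kind of skin, which gives 6 pairs that share no array, and each member was read relative to the median of the 40 members outside the slow isoforms. That median was -0.55 and -1.63 in IL-6KO against WT, -2.05 and -0.95 in uninvolved and 2.33 and 1.15 in involved transgenic skin. Around it, 6 members lay above in 6 of 6 pairs: Myh2, Myot, Actn2, Mybpc1, Des and Tcap. Another 4 lay below in 6 of 6 pairs: Pvalb, Mybpc2, Actn3 and Eno3. The other 30 were on both sides. This reading was chosen after the values were seen and carries no test.

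Myh2, the heavy chain of type IIA fibres, lay above by 0.58 to 1.88, and Pvalb, which is richest in type IIB fibres, below by 0.29 to 1.39. The step of Myh2 minus that of Pvalb ran from 1.36 to 3.27 over the 6 pairs. Its positive sign adds nothing, because Myh2 was picked as above and Pvalb as below the median in every pair. Mstn and Casq1 had the lowest medians over the pairs, -1.51 and -1.08, each with 5 of 6 pairs below and an exception in involved skin at 10 weeks. Myh4 itself was below in 3 of 6 pairs and above in 3, from -5.51 to 0.20. The median of the whole set was below 0 in 4 of these pairs and above 0 in 2.

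**Figure D5:**
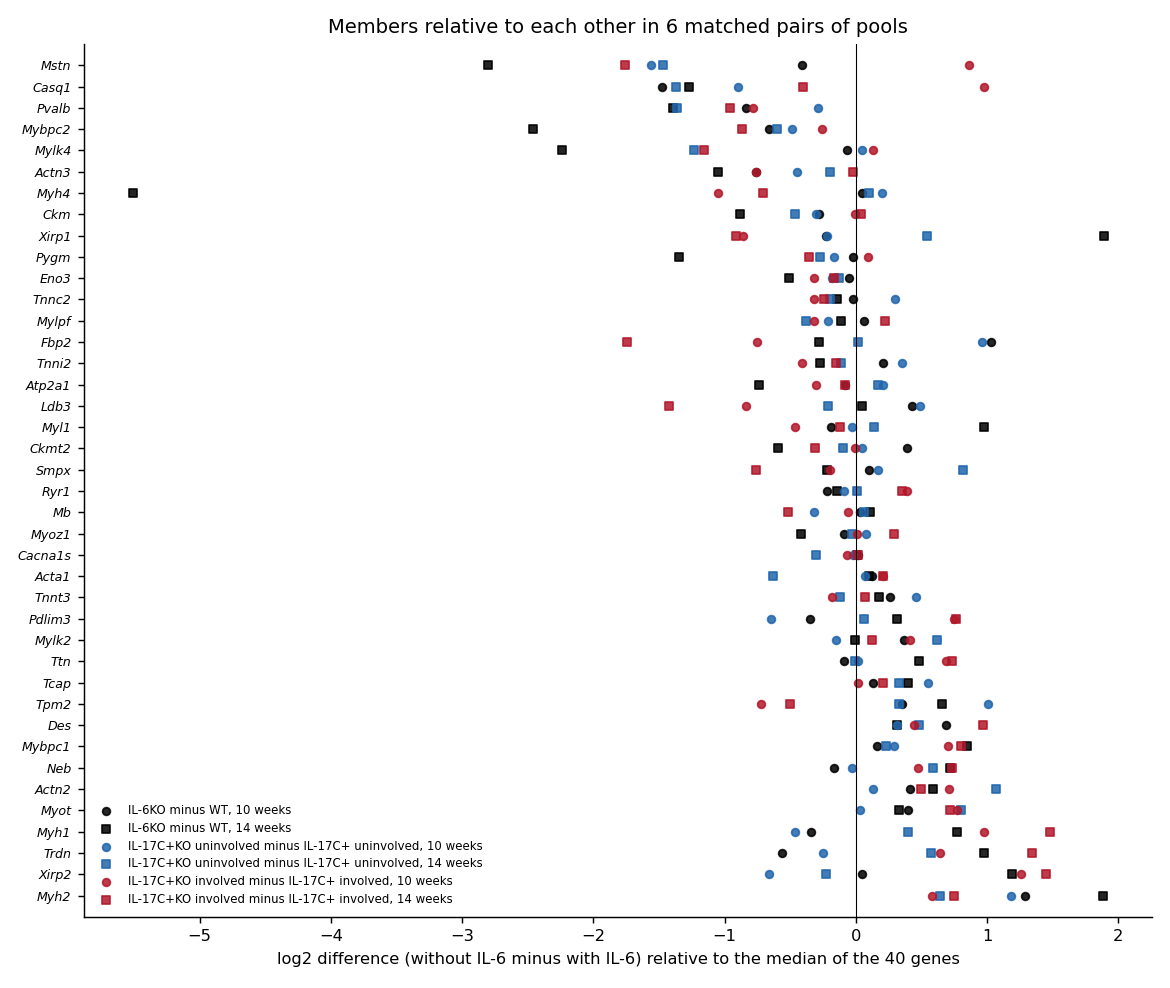
Log2 difference between the pool without IL-6 and the matching pool with IL-6 (x axis), relative to the median of the 40 members outside the slow isoforms in that pair, for each of these members (rows, ordered by their median over the 6 pairs). Colours mark the kind of skin and symbols the age. Pvalb lies left of 0 in 6 of 6 pairs and Myh2 right of 0 in 6 of 6.

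Y-linked genes, a stand-in for the share of males in a pool, were not even between the pools. The mean log2 level of 3 Y-linked genes ran from 5.15 to 6.67, with 5.34 and 5.15 in WT skin against 5.37 and 6.67 in that of IL-6KO mice. With that mean in the model, 0 members passed in IL-6KO against WT, 1 in IL-17C+KO against IL-17C+ involved skin and 1 in IL-17C+KO against IL-17C+ uninvolved skin.

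Across the 12 arrays most members ran in parallel. Of the 47, 30 had a Pearson r of 0.9 or more with the mean of the other members, and 6 were under 0.5, all of them slow isoforms. Tnnt3, Tnnc2, Myoz1, Ryr1 and Ckm were at 0.99, Myh2 at 0.64 and Myh4 at 0.55. The lowest value lay on the IL-17C+ involved array of 14 weeks for 28 members and on that of 10 weeks for 6. The highest lay on the WT array of 14 weeks for 20, on the IL-17C+ uninvolved array of 10 weeks for 11 and on the IL-17C+KO involved array of 10 weeks for 10. Outside the list, the genes most like the mean of the members over the 12 arrays were Srl (r = 0.988), Mapk12 (0.987), Myo18b (0.985), Myom1 (0.984), Adssl1 (0.979), Cmya5, Lmod3 and Ppp1r3a (each 0.978), Fsd2 (0.976) and Cavin4 (0.974). These values describe arrays that share groups and tissue pieces, and carry no test.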

How the data were processed

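The authors deposited 1 table of array intensity values, which the submitters' processing notes give as RMA (background correction, normalization between arrays and summary per probe set) in Affymetrix Expression Console. Versions, probe filters and genome build were not given in the sources used here. In the plan, log2 values were assumed, but the deposited intensities are linear (2.5 to 18385), so log2 was taken. Of 41345 rows, 23521 name 1 gene, and the row with the highest mean stood for a gene (22180 genes). Of the members, 3 have more than 1 row: Ckm, Ryr1 and Xirp2. The row not used ran from 3.88 to 4.98 for Ryr1 and from 2.92 to 4.43 for Xirp2. Members, lists and tests were chosen with earlier results of these data known.

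Groups were compared in R 4.3.3 with limma 3.58.1: lmFit on group plus age over 12 arrays with 5 residual degrees of freedom, eBayes with an intensity trend, and Benjamini-Hochberg adjustment over all genes, passing under 0.05. The code was tested on simulated data. Nothing says that pools are independent beyond age, so p-values measure the spread between 2 pools per group, and their number limits the precision. Named genes are the members, with values per array for fast and slow counterparts and for Acta1, Ckm, Atp2a1, Ryr1, Pvalb, Mb, Ttn, Des and Mstn. From each other list up to 3 genes past the threshold with the largest difference are named, and the 10 genes most like the members' mean. Alternatives were the age term, the prior, a filter on dim genes, quantile normalization, the mean of rows, a Y-linked covariate, the arrays fitted and leaving out each array.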

Additional observations from a re-analysis of the deposited data

Results flagged for a closer look

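The site difference (involved minus uninvolved skin) differed between the IL-17C+KO and IL-17C+ genotypes in 30 members by the interaction term of the model, with the difference of the site differences given on the log2 scale. In the filaments it was 3.48 for Mylpf, 2.89 for Myl1, 3.73 for Mybpc1, 3.73 for Acta1, 3.02 for Tnnt3, 2.84 for Tnni2 and 2.91 for Tnnc2. It was 3.94 for Ttn and 3.56 for Des. Among calcium genes it was 4.67 for Casq1, 3.65 for Ryr1, 2.86 for Atp2a1 and 3.20 for Pvalb, and among energy genes 3.63 for Ckm and 3.08 for Mb. The other 15 members that passed lay between 2.91 and 5.04. In IL-17C+KO skin the median site difference of the members was 1.93 between the pools of 10 weeks and 0.00 between those of 14 weeks, and without the IL-17C+KO involved pool of 10 weeks 9 members passed the interaction.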

How the results depend on the processing

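With 2 pools per group, the counts of members past the threshold moved more than the medians. Leaving out each array in turn gave 0 to 35 members for IL-17C+ involved against WT skin, 1 to 34 for IL-17C+ involved against uninvolved, 0 to 24 for IL-17C+KO against IL-17C+ involved, 0 to 8 for the same genotypes in uninvolved skin, 0 to 4 for IL-6KO against WT, 0 to 1 for IL-17C+KO involved and 0 to 1 for IL-17C+KO uninvolved against IL-6KO, 0 to 3 for the IL-17C+KO sites and 8 to 38 for the interaction. A comparison left with 1 pool in a group assumes that it varies like the others. Age is the replicate number of the labels. Without that replicate block 0 members passed in IL-6KO against WT and 1 in IL-17C+KO against IL-17C+ uninvolved skin. Same-age pools did not deviate together in all groups (r from -0.21 to 0.52 over 15 pairs of groups, 7 of them over 0.1), and pairing sites by genotype and age gave 26 members in IL-17C+ sites, 0 in IL-17C+KO sites and 28 in the interaction. Without the intensity trend 0 passed in IL-6KO against WT and 6 in IL-17C+KO against IL-17C+ involved skin. With the Y-linked covariate these were 0 and 1, and 1 in uninvolved skin. Quantile normalization gave 4 in uninvolved skin, and the mean of all rows gave 1 in IL-6KO against WT. Fitting the compared groups alone gave 27 in IL-17C+KO against IL-17C+ involved, 20 in uninvolved skin and 2 in IL-17C+KO uninvolved against IL-6KO. Of the counts under alternatives, 157 stayed within 1.5 times the count reported and 53 did not. The 157 include counts of 0 that stayed at 0, as for IL-17C+ uninvolved against WT skin and for age with each array left out. No called median changed sign. The slow isoforms, near the array medians, have the least room to show a fall.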
